A study of Rattus norvegicus with 9 samples.

Results

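The mammalian core clock loop was represented by 9 genes in the dorsal root ganglia (DRGs) of rats with chronic post-ischemia pain (CPIP). They were the activators Arntl (also called Bmal1), Clock and Npas2, and the repressors Per1, Per2, Per3, Cry1, Cry2 and Ciart. The genes were selected on the shift of their expression between electroacupuncture-treated CPIP rats (CPIP+EA) and untreated CPIP rats. All 9 were found by symbol among the 20413 genes of the expression table, and all 9 were among the 17187 genes whose mean expression was high enough to be tested. Because the difference between CPIP+EA and CPIP was used in the choice, it is given for these genes as a description, with no test.

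Sprague Dawley rats in 3 groups were sequenced, with 3 libraries per group. Per the study's methods all rats were male. The CPIP rats had a tight ring around the ankle that stopped blood flow to the hind paw and was then removed for reperfusion. The Sham rats were anesthetized in the same way and wore a ring that had been cut open. The CPIP+EA rats had the same ischemia and reperfusion and then received electroacupuncture at the Zusanli and Kunlun points of both hind limbs once a day for 10 days. The Sham and CPIP rats were not treated with electroacupuncture. The right L4-6 DRGs, on the injured side, were taken on day 10 from rats kept in a 12 h light-dark cycle. The hour at which rats of each group were treated and killed is not given in the sources used here, nor is whether Sham and CPIP rats were restrained each day as the treated rats were. RNA came from 3 rats of each group per the study's methods, so p-values measure the spread between these rats, library preparation included.

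In the clock of mammalian cells, CLOCK or its relative NPAS2 pairs with BMAL1, the product of Arntl, and the pair binds E-box sequences to switch on Per, Cry and many output genes. The PER and CRY proteins accumulate, enter the nucleus and silence that pair, and CIART (also called CHRONO) is a further repressor of it. The loop turns once a day, so that Arntl is high when the Per genes and the output gene Dbp are low, and peripheral tissues, sensory ganglia included, hold clocks of their own.

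Expression was given as FPKM, the fragments per kilobase of transcript in a library scaled to its mapped fragments. Depth cannot be read from these values, although the study listed near-equal read totals for its libraries. Precision depends on the 3 libraries of each group. A library's FPKM values summed to between 445647 and 482940. Between 2 libraries, Pearson's r of the log2 values across genes was 0.984 to 0.993, with genes not being independent replicates. The 7 neuronal markers, among them Rbfox3, Tubb3 and Avil, were present in every library, with a summed level between 6417 and 7897 FPKM. CPIP+EA replicate 3 stood apart. It had the highest sum of the 5 neutrophil markers (546 FPKM against 27.5 to 217 in the other 8 libraries), of the 4 erythroid markers found (2343 against 245 to 1411) and of the 5 macrophage markers (67.0 against 39.2 to 52.5), and the lowest neuronal sum. CPIP replicate 2 had the highest sum of the 4 skeletal muscle markers (95.5 FPKM against 6.66 to 29.8 in the other 8 libraries). No marker was at 0 in any library. The 6 Schwann cell markers summed to between 4834 and 12013 FPKM, with overlapping groups. The 4 fibroblast markers were lowest in CPIP+EA replicates 2 and 1 (428 and 515 FPKM) and summed to 654 to 1040 FPKM in the other 7 libraries. Members are therefore also given without CPIP+EA replicate 3 where it moved them, and the part of blood cells, muscle or fibroblasts in any clock gene value was not tested.

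The promoters of 3 members that hold sequences of the kind that clock proteins bind are shown. That of Cry2 also holds such a sequence and is not shown. For 8 of the 9 members the RefSeq table (rat build GRCr8) held a window of 250 bases before and 50 bases after a gene start, and it held none for Cry1. The start that the table used need not be the outermost start of the gene in RefSeq. It lay 1532 bases inside that for Ciart, 76 for Per2, 106 for Arntl, 5374 for Per1, 443 for Per3, 340 for Npas2, 0 for Cry2, and 3 and 37798 for the pair of Clock windows. Capitals mark the exact matches, on either strand, to the E-box CACGTG, the variant E-box CACGTT, the D-box TTATGTAA and the core AGGTCA of the element bound by REV-ERB and ROR receptors. The Ciart window lies at chr2:186112197-186112496 on the minus strand, the Per2 window at chr9:99496944-99497243 on the minus strand, and the Arntl window at chr1:176766078-176766377 on the plus strand.
Ciart: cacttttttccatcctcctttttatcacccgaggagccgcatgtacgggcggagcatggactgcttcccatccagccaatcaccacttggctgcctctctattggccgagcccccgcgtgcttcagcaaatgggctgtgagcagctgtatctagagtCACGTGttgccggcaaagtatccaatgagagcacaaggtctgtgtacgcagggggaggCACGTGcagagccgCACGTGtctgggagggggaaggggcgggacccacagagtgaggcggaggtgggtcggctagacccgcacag
Per2: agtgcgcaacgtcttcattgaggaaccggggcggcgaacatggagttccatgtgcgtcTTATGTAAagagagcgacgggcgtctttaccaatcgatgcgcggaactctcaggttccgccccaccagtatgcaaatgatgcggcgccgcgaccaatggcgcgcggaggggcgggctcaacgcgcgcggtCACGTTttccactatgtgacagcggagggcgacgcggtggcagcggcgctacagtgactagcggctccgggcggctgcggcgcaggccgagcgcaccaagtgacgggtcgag
Arntl: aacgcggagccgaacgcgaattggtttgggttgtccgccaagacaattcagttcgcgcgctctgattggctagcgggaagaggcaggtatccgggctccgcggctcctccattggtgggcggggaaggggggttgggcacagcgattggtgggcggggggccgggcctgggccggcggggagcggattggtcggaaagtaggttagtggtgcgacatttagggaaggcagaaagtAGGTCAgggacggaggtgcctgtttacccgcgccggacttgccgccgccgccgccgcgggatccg
The Ciart window held 3 E-boxes, ending 87, 29 and 15 bases before the start used by the table. Of the 33469 windows of all genes, 6.42% held at least 1 E-box and 0.0568% held 3 or more. The Per2 window held CACGTT, found in 4.83% of all windows, and TTATGTAA, found in 0.893%. The Arntl window held AGGTCA, a short sequence found in 16.2% of all windows. The Cry2 window held CACGTT on the opposite strand. The windows of Npas2, Clock, Per1 and Per3 held none of the letters searched, which also included the D-box TTATGCAA (0.864% of windows) and the cAMP response element TGACGTCA (1.83%). Sequence around other starts, such as the outermost start of Per1, was not searched. A match describes these letters only and is no measure of binding.

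The loop genes covered a wide range of expression in the ganglia. Over the 9 libraries, Cry2 had the highest mean level at 23.7 ± 1.39 FPKM (SD, n = 9), above 78.1% of the genes tested. Per1 followed at 16.5 ± 7.14 FPKM and Per3 at 13.05 ± 2.14 FPKM, and the ranges of these neighbours overlapped. Clock, at 6.72 ± 0.50 FPKM, was below Per3 and above Per2 in all 9 libraries. Per2 (4.28 ± 0.677 FPKM) and Arntl (4.16 ± 0.752 FPKM) overlapped over all 9 libraries, but Per2 (4.37 to 4.86 FPKM) was above Arntl (3.71 to 3.89 FPKM) in all 6 Sham and CPIP libraries and below it in all 3 CPIP+EA libraries. Ciart (2.51 ± 0.854 FPKM) and Cry1 (2.26 ± 0.255 FPKM) overlapped as well, but Ciart was above Cry1 in all 6 Sham and CPIP libraries and below it in all 3 CPIP+EA libraries. Ciart also overlapped the range of Arntl. Npas2 was the lowest at 0.26 ± 0.122 FPKM, below Cry1 in every library, so that Clock had the higher level of the 2 genes whose products pair with BMAL1. The members also differed in how steady they were. The coefficient of variation over the 9 libraries was 5.9% for Cry2 and 7.4% for Clock, and it was 34.0% for Ciart, 43.3% for Per1 and 47.0% for Npas2.

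**Figure D1:**
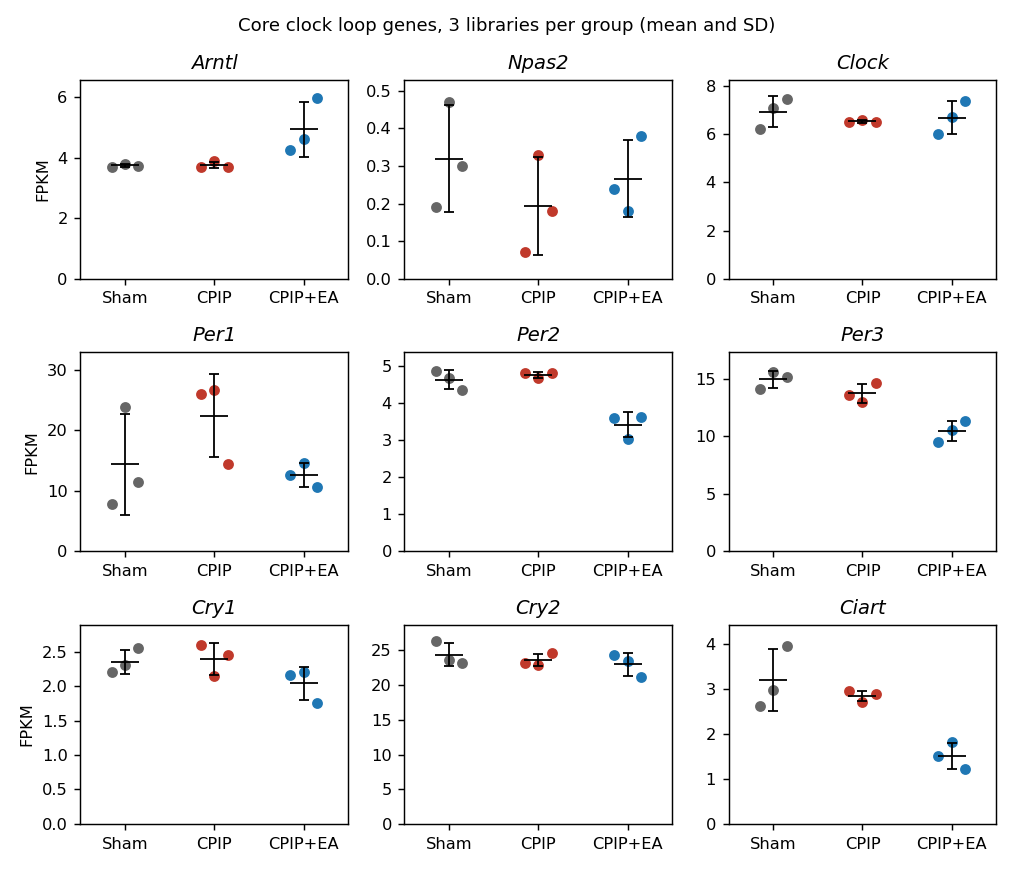
FPKM of each of the 9 core clock loop genes by group, with 1 point per library, a horizontal bar at the group mean and whiskers of 1 SD (n = 3). The 3 CPIP+EA libraries lie above the other 6 for Arntl and below the other 6 for Per2, Per3 and Ciart, and the groups overlap for the other 5 genes.

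All 3 activators had a higher mean in CPIP+EA than in CPIP, and Arntl was the one whose libraries did not overlap. It measured 3.71, 3.81 and 3.74 FPKM in the Sham libraries, 3.71, 3.89 and 3.71 in those of CPIP, and 4.25, 4.63 and 5.98 with electroacupuncture. Sham and CPIP were almost the same in all 6 libraries, and every CPIP+EA library was above them, with replicate 3 the furthest. The group means were 3.75 ± 0.0513, 3.77 ± 0.104 and 4.95 ± 0.909 FPKM (SD, n = 3), a difference of 31.4% between CPIP+EA and CPIP. On the log2(FPKM + 0.5) scale the difference was 0.34, and without CPIP+EA replicate 3, the library with the highest blood cell markers, it was 0.21. In bulk tissue, fewer cells of a type and less RNA per cell cannot be told apart, for Arntl as for every gene below.

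The other activators did not separate the groups. Clock measured 6.23, 7.09 and 7.48 FPKM in Sham, 6.5, 6.6 and 6.52 in CPIP, and in CPIP+EA 6.0, 6.7 and 7.37, and its mean differed by 2.29% between CPIP+EA and CPIP. Npas2 was between 0.07 and 0.47 FPKM throughout, with overlapping groups and a difference of 37.9% between those means. Its SD of 0.141 FPKM in Sham was larger than any difference between its group means. Without CPIP+EA replicate 3 the log2 difference between CPIP+EA and CPIP went from 0.03 to -0.04 for Clock and from 0.15 to 0.05 for Npas2.

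The repressors Per2, Per3 and Ciart were lower in each CPIP+EA library than in every library of the other groups. Per2, a repressor whose loss disturbs daily rhythms in mice, measured 4.86, 4.68 and 4.37 FPKM in Sham, 4.82, 4.68 and 4.82 in CPIP, and in CPIP+EA 3.6, 3.04 and 3.63. The CPIP+EA mean of 3.42 ± 0.332 FPKM differed by -28.3% from the CPIP mean of 4.77 ± 0.0808 FPKM. Per3 measured 14.12, 15.59 and 15.16 FPKM in Sham, 13.61, 12.99 and 14.64 in CPIP, and in CPIP+EA 9.53, 10.53 and 11.31. These groups of Per3 were also apart, with a difference of -23.9% between the CPIP+EA and CPIP means. Ciart, whose window above carries 3 E-boxes, measured 2.62, 2.98 and 3.95 FPKM in Sham, 2.94, 2.71 and 2.87 in CPIP, and in CPIP+EA 1.5, 1.81 and 1.22. Its mean of 1.51 ± 0.295 FPKM in CPIP+EA differed by -46.8% from the CPIP mean of 2.84 ± 0.118 FPKM, the largest percentage of the 9 members. By the log2(FPKM + 0.5) difference Per1, described below, was slightly further, at -0.76. On the log2 scale the differences were -0.43 for Per2, -0.38 for Per3 and -0.74 for Ciart. When single libraries were left out, they ranged from -0.47 to -0.36, from -0.44 to -0.32 and from -0.85 to -0.64. Without CPIP+EA replicate 3 they were -0.47, -0.44 and -0.64, so the lower levels of these 3 repressors were also present in the other 2 CPIP+EA libraries.

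The 2 arms of the loop can also be set against each other within a library. Arntl over Per2 was 0.763, 0.814 and 0.856 in Sham and 0.770, 0.831 and 0.770 in CPIP, and it was 1.18, 1.52 and 1.65 in CPIP+EA. Per2 thus exceeded Arntl in all 6 libraries of rats without electroacupuncture, and Arntl exceeded Per2 in all 3 libraries of treated rats. The ratio is free of the scaling of a library but uses the same values that chose the genes.

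The cryptochromes showed little difference. Cry1 measured 2.2, 2.3 and 2.55 FPKM in Sham, 2.6, 2.14 and 2.45 in CPIP, and in CPIP+EA 2.16, 2.2 and 1.76. The CPIP+EA mean of Cry1 differed by -14.9% from that of CPIP, and its lowest value was that of CPIP+EA replicate 3. Cry2 measured 26.31, 23.6 and 23.23 FPKM in Sham, 23.24, 22.91 and 24.58 in CPIP, and in CPIP+EA 24.39, 23.43 and 21.22, a difference of -2.39% between the CPIP+EA and CPIP means. The log2 difference between CPIP+EA and CPIP was -0.19 for Cry1 and -0.04 for Cry2, and without CPIP+EA replicate 3 it was -0.11 and 0.02.

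Across all genes tested, 152 genes (0.884%) were at least 1.5-fold lower in CPIP+EA than in CPIP, and 2 of the 9 members, Per1 and Ciart, were among them. In 226 genes (1.31%) all 3 CPIP+EA libraries were below the other 6, and in 299 genes (1.74%) they were above, against 3 and 1 of the 9 members. These counts use the contrast that chose the members, so nothing is read from them. At the threshold for a differentially expressed gene (DEG), an adjusted p under 0.01 with at least a 1.5-fold change in limma, 0 genes (0.0%) passed between CPIP+EA and CPIP. The smallest adjusted p of that comparison was 0.113, and 738 genes had an unadjusted p under 0.05. These counts hold for this limma fit only. With its own Q values and the same limits, the study reported far more differentially expressed genes in that comparison, and also in CPIP against Sham. By qPCR, the study also found several immune response genes higher after electroacupuncture. The reason for the different counts was not tested.

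The comparison of both post-ischemia groups with Sham does not use the difference between CPIP+EA and CPIP, and is the one test of the members that does not reuse the contrast behind their choice. None of the 9 members was a DEG in it, against 103 genes (0.599%) of all genes tested. No member changed by 1.5-fold in it, so none could be a DEG at any p. A change in CPIP+EA alone is diluted in this comparison. With simulated data it called 2 of 100 genes changed 2-fold in CPIP+EA alone. Per3 had the lowest limma adjusted p of the members, 0.0789, at -0.31 ± 0.07 (SE) on the log2 scale. Ciart followed at -0.50 ± 0.14 with an adjusted p of 0.146. The adjusted p of Per3 was 0.0370 on a TPM scale and 0.0469 without CPIP+EA replicate 3, and reached 0.325 without Sham replicate 2. Per2, at -0.18, had an adjusted p of 0.442, and the other 6 members were at 0.575 or above. The median log2 difference was -0.07 over the members and 0.00 over all genes tested. In no member did the 6 post-ischemia libraries lie wholly above or below those of Sham. Of all 17187 genes tested, they lay wholly above in 696 and wholly below in 554, so little is read from 9 members.

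No member passed the test in the CPIP rats without electroacupuncture. Between CPIP and Sham 0 of the 9 members were DEGs, against 61 genes (0.355%), and their limma adjusted p ranged from 0.676 to 0.997. In 0 of the 9 members did the 3 CPIP libraries lie wholly above or below the 3 Sham libraries, which occurred in 2728 genes (15.9%). The log2 differences were 0.01 ± 0.12 (SE) for Arntl, 0.04 ± 0.09 for Per2, -0.12 ± 0.08 for Per3 and -0.13 ± 0.16 for Ciart. This comparison shares the CPIP libraries with the one that chose the members.

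Between CPIP+EA and Sham, which shares the CPIP+EA libraries with the choice of the genes, 0 of the 9 members were DEGs, against 83 genes (0.483%). At an adjusted p under 0.05, 30 genes (0.175%) were lower in CPIP+EA, and 2 of them were members. Because the CPIP+EA values entered the choice, nothing is read from this count, and the p-values of members here are a description. Per3 was at -0.50 ± 0.08 (SE), with a limma adjusted p of 0.0194, and Ciart was at -0.87 ± 0.16, with an adjusted p of 0.0326. Both depended on single libraries. When libraries were left out one at a time, the adjusted p of Per3 stayed under 0.05 in 5 of 9 fits and rose to between 0.055 and 0.098 without Sham replicate 2 or 3 or CPIP+EA replicate 1 or 2. That of Ciart stayed under 0.05 only without Sham replicate 1 or CPIP+EA replicate 2, and was 0.0582 to 0.0992 in the other 7 fits. With only Sham and CPIP+EA in the fit, the adjusted p was 0.0670 for Per3 and 0.119 for Ciart. Per2 (-0.39 ± 0.09, adjusted p 0.0972) and Arntl (0.35 ± 0.12, adjusted p 0.271) did not pass.

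**Figure D2:**
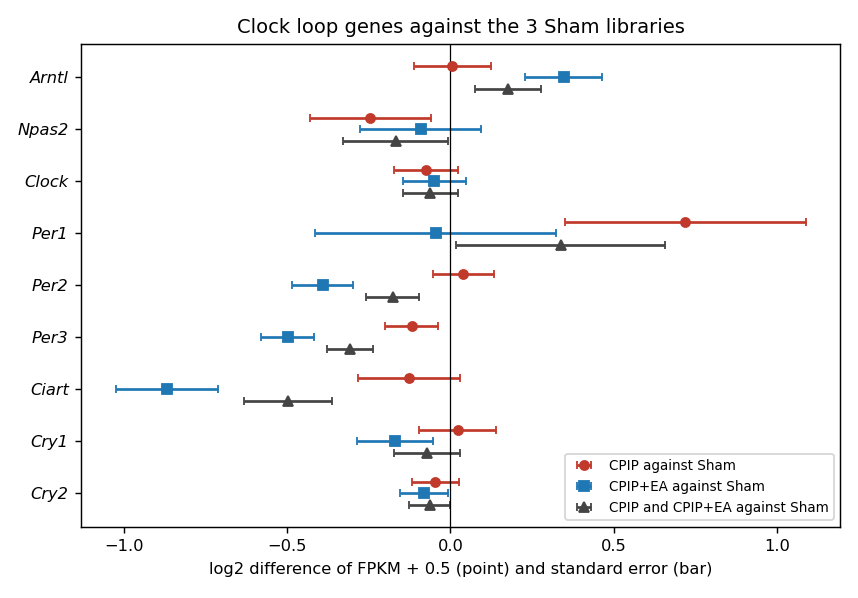
Log2 difference of FPKM + 0.5 from Sham for each core clock loop gene (horizontal axis), for CPIP, CPIP+EA and both groups together, with bars of 1 standard error from the limma fit. Per2, Per3 and Ciart lie near 0 for CPIP, and for CPIP+EA they lie at -0.39, -0.50 and -0.87, while Per1 has the widest bars.

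Per1 behaved unlike the other Per genes. Besides the clock, glucocorticoids and cAMP signalling switch it on directly through response elements. It measured 7.81, 23.85 and 11.5 FPKM in Sham, 26.11, 26.7 and 14.47 in CPIP, and in CPIP+EA 12.69, 14.56 and 10.64. The groups overlapped, since Sham replicate 2 was near the upper 2 CPIP libraries and CPIP replicate 3 was within the range of the treated rats. The mean of CPIP was 22.4 ± 6.90 FPKM against 12.6 ± 1.96 in CPIP+EA and 14.4 ± 8.40 in Sham. The log2 difference between CPIP+EA and CPIP was -0.76, and it ranged from -1.05 to -0.62 with each library left out. Without CPIP replicate 2, the library with the highest muscle markers, it was -0.62. Against Sham, CPIP was at 0.72 ± 0.37 (SE) with a limma adjusted p of 0.676, and the difference was 0.37 without Sham replicate 1 and 1.15 without Sham replicate 2.

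The libraries high in Per1 were also high in several glucocorticoid-responsive genes, a comparison made after the values were seen. The 3 libraries with the highest Per1, CPIP replicates 1 and 2 and Sham replicate 2, were also the 3 highest for 5 of the 8 listed glucocorticoid targets (Sgk1, Dusp1, Klf9, Errfi1 and Pdk4). This was so for 1 of 10 immediate early genes (Nr4a1), for 0 of 10 output loop genes, for 0 of the 5 other repressors, and for 110 genes (0.640%) of all genes tested. Sgk1, a kinase induced by glucocorticoids, measured 27.85 and 23.89 FPKM in those CPIP libraries and 19.37 in Sham replicate 2, and between 10.41 and 14.64 in the other 6. Errfi1, a feedback inhibitor of growth factor receptors, measured 14.32, 14.25 and 12.58 FPKM in the same 3 libraries and 6.75 to 9.02 in the others. The other 3 targets, Fkbp5, Zbtb16 and Tsc22d3, did not share this order. Fkbp5 measured 9.71 and 8.78 FPKM in CPIP replicates 1 and 2 against 9.6 to 10.74 in CPIP+EA, and Zbtb16 was highest in CPIP+EA replicates 1 and 3. None of the 8 glucocorticoid targets was a DEG in any comparison, and their median log2 difference between CPIP+EA and CPIP was -0.27. Of the 10 immediate early genes 2, Jun and Atf3, were DEGs and higher in both post-ischemia groups against Sham, against 0.599% of all genes, and 0 were DEGs between CPIP+EA and CPIP. Atf3 was a DEG under every alternative run, and Jun under 17 of 18, with an adjusted p of 0.0113 without Sham replicate 2. In CPIP alone and in CPIP+EA alone against Sham, Jun was a DEG under 5 and 8 of 19 alternatives, with adjusted p up to 0.0423 and 0.0246. Per1 varied widely within 2 of the groups, with an SD of 8.40 FPKM in Sham and 6.90 FPKM in CPIP, and less in CPIP+EA, at 1.96 FPKM.

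**Figure D3:**
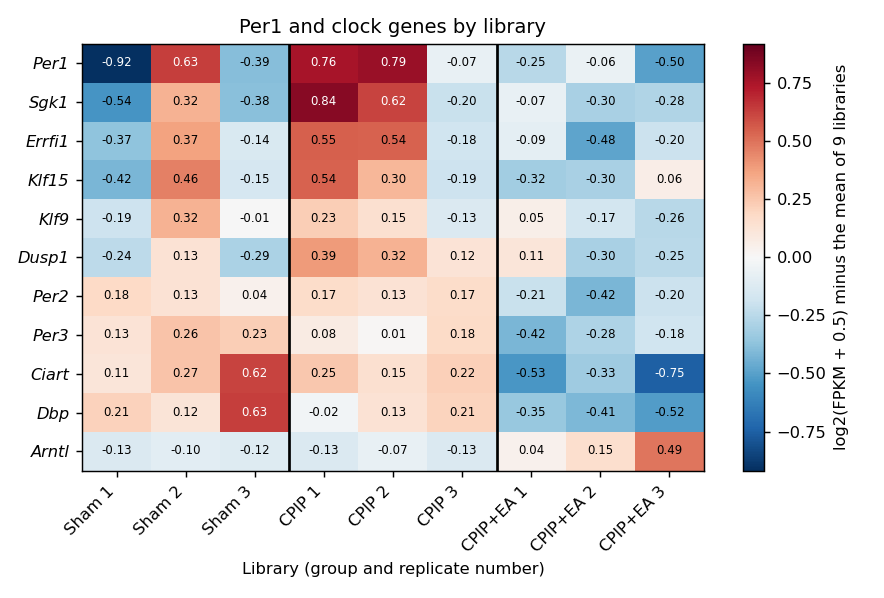
Log2(FPKM + 0.5) in each library, minus the mean of the 9 libraries (color and printed number). The rows are Per1, the glucocorticoid targets Sgk1, Errfi1, Klf9 and Dusp1, Klf15 from the clock-controlled list, and clock genes. These targets share the order of Per1, a comparison made after the values were seen. Pdk4, which shares it, and Fkbp5, Zbtb16 and Tsc22d3, which do not, are not drawn. Sham replicate 2 and CPIP replicates 1 and 2 are high for Per1, Sgk1 and Errfi1, and the CPIP+EA libraries are low for Per2, Per3, Ciart and Dbp and high for Arntl.

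The nuclear receptor and output loop, which the core loop drives and which feeds back on Arntl, held several genes that set the CPIP+EA libraries apart. Of its 11 listed genes 10 were tested, and Rorb was below the filter. None was a DEG in any of the 4 comparisons. The CPIP+EA libraries were below the other 6 for 3 of the 10 and above them for 1, with 1.31% and 1.74% for all genes. The list was chosen with earlier results of these data known. These counts and the p-values of its genes are therefore a description, and nothing is read from the counts. The list's median log2 difference between CPIP+EA and CPIP was -0.16 against 0.01 over all genes tested. Dbp, a PAR bZIP activator that binds D-boxes, measured 41.59, 38.91 and 55.82 FPKM in Sham, 35.25, 39.32 and 41.44 in CPIP, and in CPIP+EA 28.06, 26.83 and 24.91. Hlf, of the same family, measured 1.78, 1.39 and 1.87 FPKM in Sham, 1.43, 1.52 and 1.97 in CPIP, and in CPIP+EA 1.07, 0.95 and 1.13. Dbp, Hlf and their relative Tef were below the other 6 libraries in all CPIP+EA libraries, although for Tef the CPIP+EA and CPIP means differed by -9.44%. Nfil3, a repressor that competes with these proteins for D-boxes, was the opposite, with 1.19, 1.59 and 1.3 FPKM in Sham, 2.57, 2.08 and 2.21 in CPIP, and in CPIP+EA 3.89, 2.68 and 2.84. Against Sham, Dbp in CPIP+EA was at -0.75 ± 0.13 (SE) with a limma adjusted p of 0.0240, and Nfil3 was at 0.96 ± 0.15 with an adjusted p of 0.0172. The adjusted p of Dbp was over 0.05, up to 0.0866, without Sham replicate 1 or any 1 of the CPIP+EA libraries, and that of Nfil3, up to 0.0753, without Sham replicate 1 or 3. With only the groups compared it was 0.0775 for Dbp and 0.0640 for Nfil3, and for Dbp it was 0.0548 without the filter on expression.

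**Figure D4:**
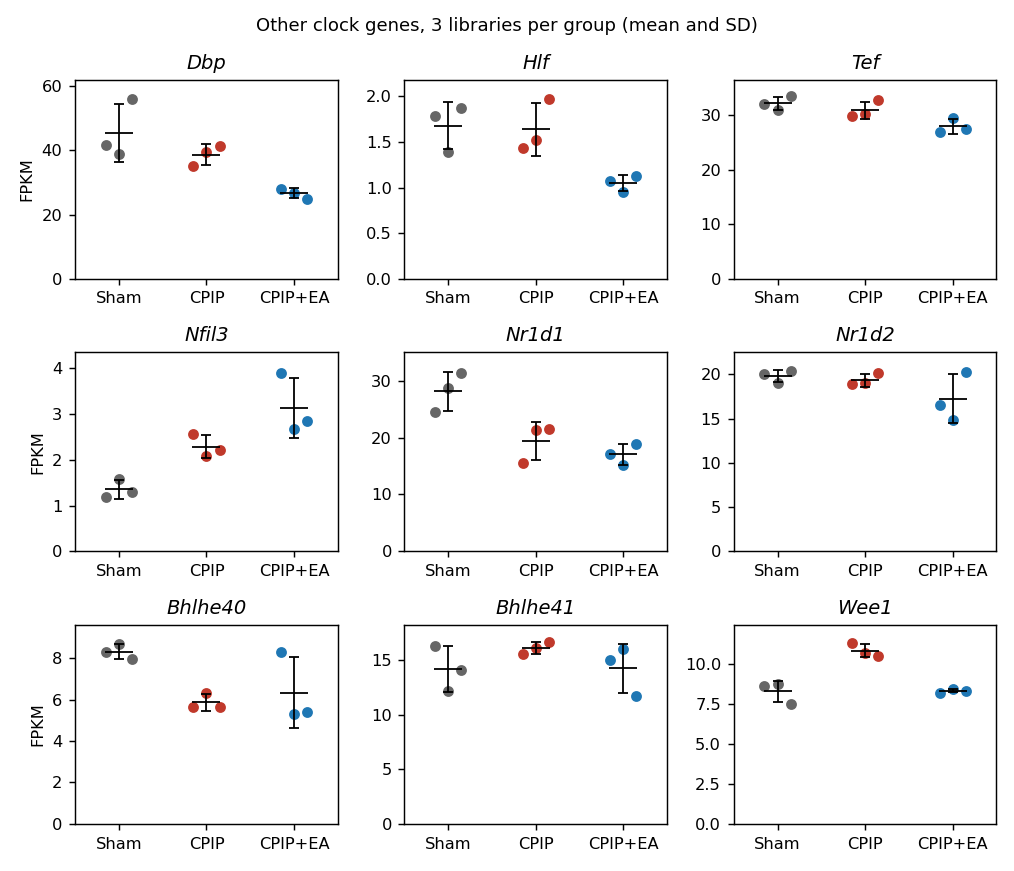
FPKM of 8 output loop genes and the clock-controlled gene Wee1 by group, with 1 point per library, the group mean and whiskers of 1 SD (n = 3). The CPIP+EA libraries are the 3 lowest for Dbp, Hlf and Tef and the 3 highest for Nfil3, and Nr1d1 is lower in both post-ischemia groups than in Sham.

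Nr1d1, which encodes REV-ERB alpha, the receptor that represses Arntl through elements like the one in its window above, differed in another way. It measured 24.44, 28.63 and 31.28 FPKM in Sham, 15.44, 21.26 and 21.42 in CPIP, and in CPIP+EA 17.02, 15.2 and 18.89. Every post-ischemia library was below every Sham library, with or without electroacupuncture. In both post-ischemia groups together the log2 difference from Sham was -0.62 with a limma adjusted p of 0.0458, under 0.05 but not the threshold for a DEG. With a library left out it stayed under 0.05 only without CPIP replicate 1 or CPIP+EA replicate 3, and it reached 0.202 without Sham replicate 2. It was also over 0.05 without the filter (0.0882) and without the trend (0.0703). Nfil3 was likewise higher in both groups than in Sham, at 0.77 with an adjusted p of 0.0210, which stayed under 0.05 without CPIP replicate 2 or any 1 of the CPIP+EA libraries and was 0.0515 to 0.118 without any other. The mean of Arntl differed by 0.444% between CPIP and Sham, and that of Nr1d1 by -31.1%. Nr1d2, the second REV-ERB gene, and Rora, which activates Arntl, differed between the CPIP+EA and CPIP means by -10.7% and 6.92%.

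The 17 genes for the turnover and modification of clock proteins, such as the casein kinases Csnk1d and Csnk1e, held 0 DEGs in each comparison. Their median log2 difference between CPIP+EA and CPIP was 0.04. Arntl2, a paralog of Arntl, had the largest difference of the list at 0.30, with 0.75 to 0.92 FPKM in CPIP and 0.96 to 1.47 in CPIP+EA, and its Sham libraries covered 0.38 to 1.3 FPKM. Of 8 clock-controlled targets 2, Cdkn1a and Tspo, were DEGs in both post-ischemia groups against Sham, against 0.599% of all genes, and both were higher than in Sham under all 18 alternatives. In CPIP alone against Sham (0.355% of all genes) Cdkn1a was a DEG under 13 and Tspo under 6 of 19 alternatives, and in CPIP+EA against Sham (0.483%) under 14 and 12. The call of Tspo in CPIP was lost with any 1 library left out, at an adjusted p of up to 0.0412. Between CPIP+EA and CPIP their log2 differences were 0.01 and 0.08, with overlapping libraries. Wee1, a cell cycle kinase gene that the BMAL1 pair activates, measured 8.59, 8.7 and 7.5 FPKM in Sham, 11.31, 10.67 and 10.48 in CPIP, and in CPIP+EA 8.2, 8.4 and 8.32. Its CPIP libraries were all above the others, and the treated rats lay within the Sham range. The limma adjusted p of Wee1 between CPIP and Sham was 0.0758, at 0.37 on the log2 scale.

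Genes whose pattern over the 9 libraries was most like that of Arntl and Per2 were ranked by Pearson's r of log2(FPKM + 0.5). The 5227 genes compared were not members, had a mean of at least 1 FPKM and varied by at least 0.5 on that scale. The points are 3 groups of libraries and both reference genes were chosen for a group difference, so r has no p here. RGD1562652, at 0.38 to 0.84 FPKM in the Sham and CPIP libraries, met the mean of 1 FPKM only through CPIP+EA, as did Jaml. The filter thus favoured such genes in likeness to references chosen for their shift in CPIP+EA. The genes most like Arntl were RGD1562652 (r of 0.948), Jaml (0.936), LOC102556290 (0.920), Tyw1 (0.920) and Lgi4 (0.915), and among the most opposed were Etl4 (-0.949), Pitpnm2 (-0.928), Camk2b (-0.924) and Synpo (-0.921). All 5 of the first had their highest value in CPIP+EA replicate 3, and these 4 opposed genes had their lowest value there, as Jaml at 2.12 FPKM against 0.75 to 1.1 in the other 8 libraries. Jaml encodes an adhesion molecule of leukocytes, and Camk2b a kinase of neurons. That library had the most blood cell markers and the highest Arntl, and their part in this likeness was not tested.

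The genes most like Per2 were H3f3c (r of 0.959), Clec3b (0.934), Zfp423 (0.928), Prr12 (0.926) and Lrp1 (0.921), and the most opposed were Rrp36 (-0.935), Psmd9 (-0.925), Sec14l3 (-0.920), Cmc1 (-0.919) and LOC108348102 (-0.916). CPIP+EA replicate 2, the library with the lowest Per2 and the lowest fibroblast markers, was lowest in all of the first 5, and the part of fibroblasts in this likeness was not tested. H3f3c, a histone gene with near-identical copies among which reads may have been split, measured 9.75 to 23.13 FPKM in the Sham and CPIP libraries and 0.98 to 3.4 in CPIP+EA. Sec14l3, a lipid transfer gene, measured 0.22 to 0.93 FPKM against 3.43 to 9.08, and met the mean of 1 FPKM for this ranking only through CPIP+EA. Of the output genes, Hlf ranked 26 and Dbp 122 in likeness to Per2, with r of 0.844 and 0.738, while Nr1d1 ranked 597 (0.524), Bhlhe40 1388 (0.302) and Nfil3 5020 (-0.606). Wee1, a clock-controlled target, ranked 593 (0.525).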

How the data were processed

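RNA-Seq libraries of DRGs from 9 rats in 3 groups were analysed. The authors cleaned the reads with SOAPnuke, and the deposited unit is FPKM, rounded to 2 decimals. The aligner, genome build and annotation are not given in the sources used here. The authors' own comparisons in the same table (ratios on the log2 scale with their P and Q columns) were not used. Groups and replicate numbers were taken from the sample titles.

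In R 4.3.3, limma 3.58.1 was fitted to log2(FPKM + 0.5) with a mean-variance trend, with the 9 libraries in 1 fit, no covariate and a mean FPKM of at least 0.1. Two-sided p-values were adjusted over all 17187 genes by the Benjamini-Hochberg method, and the fit was tested on simulated data. The fold changes understate those of weakly expressed genes because of the added 0.5. The named genes were the 9 members, listed clock, glucocorticoid and immediate early genes, and the 5 genes most and least like Arntl and Per2, of which 1 is not reported here. The members and lists were chosen with earlier results of these data known. The likeness to Per1 and the order of libraries were examined after values were seen. As alternatives, the pseudocount was 0.1 or 1, the filter was dropped or set at a mean of 1, and the fit used a TPM scale, quantile normalization, median centring, no trend, the replicate number as a block, the compared groups alone, other thresholds, or 8 of the 9 libraries. Figures were drawn with matplotlib 3.10.9.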

Additional observations from a re-analysis of the deposited data

How the results depend on the processing

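At the main threshold none of the 9 members became a DEG under another scaling, filter, fit or set of libraries in the 3 comparisons with Sham. At an adjusted p under 0.05, Ciart passed with the fold limit and Per3 and Ciart without it, for CPIP+EA against Sham. The number of DEGs among all genes moved by more than 1.5 times under several. For both post-ischemia groups against Sham (103 genes) it was 166 at an adjusted p under 0.05 with the fold limit, 274 without it, 63 with the replicate block, and 55 to 107 with 1 library left out, with the lowest counts without Sham replicates 1, 2 or 3. For CPIP against Sham (61) it was 102, 122 and 26 in the same order, 40 without the filter, and 30 to 62 with 1 library left out, more than 1.5 times lower without any 1 of the Sham libraries or CPIP replicate 2 or 3. For CPIP+EA against Sham (83) it was 163, 226 and 42, 55 without the filter, 51 with only the groups compared, and 35 to 82 with 1 library left out, more than 1.5 times lower without CPIP+EA replicate 2, CPIP replicate 2 or any 1 of the Sham libraries. For CPIP+EA against CPIP (0) it was 1 with only the groups compared and 0 to 2 with 1 library left out, above 0 without Sham replicate 3, CPIP replicate 3 or CPIP+EA replicate 1 or 3. The median change of all genes was at most 0.026 on the log2 scale under any setting.

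Some member values near 0 changed sign. For CPIP against Sham, Arntl was at -0.004 on the TPM scale, -0.013 with quantile normalization and -0.001 with median centring. With 1 library left out the log2 difference ranged from -0.015 to 0.015 for Arntl, from -0.028 to 0.087 for Cry1, from -0.079 to 0.009 for Cry2 and from -0.237 to 0.019 for Ciart. For CPIP+EA against Sham it ranged from -0.209 to 0.037 for Npas2, from -0.119 to 0.022 for Clock and from -0.392 to 0.384 for Per1. For both groups against Sham it ranged from -0.010 to 0.766 for Per1, the ends being the fits without Sham replicates 1 and 2. For CPIP+EA against CPIP, Clock ranged from -0.041 to 0.097 and Cry2 from -0.078 to 0.020. The cause was not tested.

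Libraries of different groups share a replicate number only as a label. The correlation of their deviations from the group means was -0.236 to 0.297 for the 9 pairs with the same number and -0.223 to 0.28 for the 18 other pairs, and the replicate block made no member a DEG. With it the adjusted p against Sham in CPIP+EA was 0.0985 for Ciart, 0.0579 for Dbp and 0.0561 for Nfil3, and that of Nfil3 in both groups was 0.0627. The FPKM values hold no counts, so the number of reads behind a single value is unknown, although the study listed near-equal read totals for the 9 libraries.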
